A study of Solanum lycopersicum with 6 samples.

Results

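The genes described here are the 80 named genes with the highest values in mature green fruit of unstressed tomato plants. They were taken from 559 named genes, each represented by the probe set with the highest mean over the 3 control arrays. Genes known only by a LOC identifier were not considered, and neither were 67 genes of families such as the ethylene receptors, beta-galactosidases, cyclins and chlorophyll-binding proteins. The control values therefore chose the members, and their levels are given as a description with no test. Of the 10101 probe sets on the array, 9192 carried no gene symbol, and the last member lay at place 672 among all probe sets. Of those 672 probe sets, 565 had no symbol, so the list holds the brightest named genes and not the brightest transcripts of the fruit.

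Fruits came from the dwarf cultivar MicroTom, which was kept in a greenhouse (25 °C in daytime, 20 °C in the evening) until harvest 30 to 40 days after flowering. The control group (3 arrays) was grown under normal conditions with a liquid fertilizer diluted 500-fold. The drought group (3 arrays) was given this dilution only once each week, and effects of water and of nutrients cannot be told apart. Each sample was total RNA of fruit, of which 100 ng was labelled with biotin, and the labels do not state whether replicates were taken from different plants. The p-values therefore rest on the spread among 3 samples a group, some or all of which may be technical. In RNA of a whole fruit, fewer cells of a type and less RNA per cell cannot be told apart.

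A mature green tomato has reached full size and has not begun to ripen. Its chloroplasts are still intact, its vacuoles store malate and citrate, and its cell walls have not yet been taken apart. Transcripts of high abundance in such tissue usually encode proteins that every cell needs in quantity, among them translation factors, cytoskeletal proteins, enzymes of central metabolism and scavengers of reactive oxygen. Metallothioneins, which bind metal ions through cysteine residues, belong to the most abundant transcripts of many plant tissues.

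The values of these genes differed very little between the groups. In limma over all probe sets, 1 of the 80 members (1.25%) passed an adjusted p of 0.05, against 0.762% of all 10101 probe sets (0.525% higher and 0.238% lower in drought). That member was TAL, named for transaldolase of the pentose phosphate pathway, and it rose by less than a thousandth of a log2 unit. Of the 80 members, 37 had a higher and 43 a lower mean in drought, where all probe sets gave 49.2% and 50.8%, and the median difference was -4.5e-07 on the log2 scale, beside -1.1e-07 over all probe sets. The drought and control arrays did not overlap in 23 members (28.75%), beside 34.8% of all probe sets. Of the 80 members, 11 (13.75%) were higher in drought without overlap, beside 20.5% of all probe sets. Another 12 (15%) were lower, beside 14.3%. At an unadjusted p under 0.05 there were 14 members (17.5%), beside 25.0% of all probe sets.

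The deposited values moved very little between arrays for most probe sets. The range of a probe set, its highest minus its lowest array, had a median of 9.3e-05 in the 80 members. It was 0.00063 in the other 479 named genes and 0.00013 over all probe sets. A range under 0.001 was found in 65 of the 80 members (81.2%), in 54.9% of the other named genes and in 75.7% of all probe sets. No member had a range above 0.1, which 2.65% of all probe sets had. The range depended on the level. Above a level of 12, 183 probe sets had a median range of 4.0e-05, the 1957 between 8 and 9 had 0.00027, and the 801 between 5 and 6 had 9.1e-06. For scale, 27 probe sets for bacterial and phage spike-in controls had a median range of 9.1e-05 and a maximum of 0.00047. In 58 members the range did not exceed that of the most variable spike-in. A difference on this scale may therefore not equal a fold as a scanner would measure it.

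**Figure D1:**
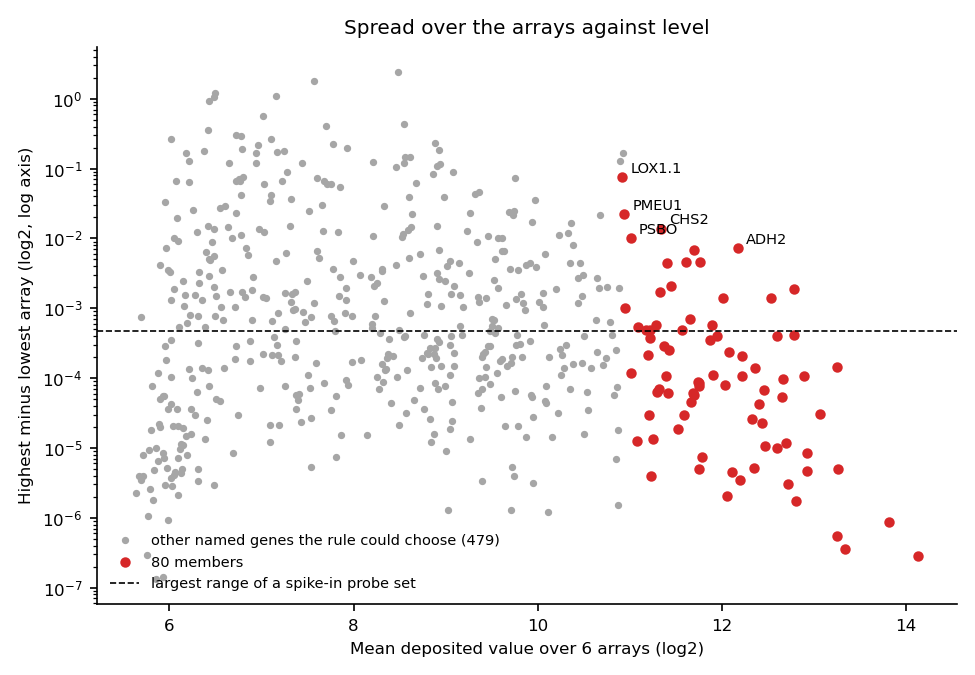
Range over the 6 arrays (log2, log axis) against the mean deposited value of each gene. Red points are the 80 members, grey points the other 479 named genes, and the dashed line marks the most variable spike-in (0.00047). Most members lie under the line, and LOX1.1 and PMEU1 lie highest.

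The arrays did not fall into clean groups. Between control replicates 1 and 2, 92 probe sets differed by over 0.1, and between control replicate 3 and these 2 arrays 164 and 149 did. Control replicate 3 differed from the drought arrays in 93 to 115 probe sets, and the drought arrays from each other in 47 to 69. Array medians ran from 7.897 to 7.902 in control and from 7.905 to 7.907 in drought. When the arrays were centred on a common median, all 80 members lay lower in drought without overlap, with a median difference of -0.0055. After quantile normalization 67 did, and the median difference was -0.013. Over all 10101 probe sets, 9406 passed the threshold after centring and 0 after quantile normalization. Shares without overlap over all probe sets are not given under these scalings, so the counts cannot be called particular to the members. The 11 members that were higher in drought without overlap all turned lower under both of these scalings. Without control replicate 3 the number of members past the threshold was 4, and it was 0 without any single one of the other 5 arrays. Over all probe sets the counts were 77 with all arrays, 546 without control replicate 3 and 0 to 7 without another array.

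As a check of the tissue, genes of green tissue and of ripe fruit were read against the quartiles of each array. Of 7 genes that mark green tissue, 4 of photosystem II and 3 of chlorophyll-binding proteins, 6 lay above the upper quartile of every array. Of 7 genes of ripe fruit, the polygalacturonase gene PG2 and the ACC synthase gene ACS2 lay below the lower quartile of every array. LOXB and the phytoene synthase gene Psy1 lay above the upper quartile. Markers of seed or pollen (3 genes) had 1 below the lower and 1 above the upper quartile. Means were lower in drought for 5 of the 7 green tissue genes, 6 of the 7 ripe fruit genes, 2 of the 3 of seed or pollen and all 3 of epidermis and cuticle, LE16, TSW12 and ltpg1. The summed log2 values of the last list were 29.35 to 29.37 in control and 29.32 to 29.34 in drought, and their part in the results below was not tested.

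The highest control mean of all 10101 probe sets belonged to 2A11, a fruit-specific gene for a small cysteine-rich protein. In control replicate 3 and in the 3 drought arrays, 1 other probe set was brighter. The gene 2A11 stood at 14.13 in each of the 6 arrays, with a range of 2.8e-07. GP1, also called AroGP1, which encodes the beta subunit of a polygalacturonase isoenzyme, had 13.25246, 13.25249 and 13.25244 in control and 13.25235, 13.25237 and 13.25240 in drought. All drought arrays lay below all control arrays. The difference was -9.4e-05 ± 2.0e-05 (SE, limma adjusted p = 0.0954). The gene matriochka, with the synonym SlIMA, stood at 13.25 in every array, with a range of 5.4e-07 and all drought arrays below all control arrays. Its difference was smaller than its SE (-3.5e-07 ± 2.1e-06, limma adjusted p = 0.952).

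Metallothioneins were represented by 3 of the 5 genes with such symbols. All 3 had lower means in drought, as did 4 of the 5 and 50.8% of all probe sets. LEMT1, also called MTB, held the fourth place among all probe sets at 13.82, with a range of 8.8e-07, and MTA stood at 12.60 with a range of 0.00041. The difference of LEMT1 was smaller than its SE (-4.3e-07 ± 2.1e-06, limma adjusted p = 0.939), and the groups of MTA overlapped. MT4 moved more than either. It had 12.5391, 12.5390 and 12.5388 in control and 12.5381, 12.5377 and 12.5380 in drought. The groups did not overlap, and the means were 12.53896 ± 0.00014 and 12.53793 ± 0.00022 (SD, n = 3 each). The difference of -0.0010 ± 0.00015 (SE) missed the threshold (limma adjusted p = 0.0579). MT4 had 3 other probe sets, with differences of -0.0074, -0.0061 and -7.9e-05, at control levels of 9.43, 10.35 and 12.38. With its probe sets averaged, MT4 differed by -0.0036 (adjusted p = 0.0666). The probe set that ranked MT4 is of the type that can match transcripts of several genes, as were those of H1 and RPL3, so signal of close relatives cannot be told apart there.

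In translation, 9 of 12 listed genes were members, and 0 of the 12 passed the threshold. They were the translationally controlled protein TCTP, all 4 genes of eIF-5A and 4 of 6 ribosomal protein genes. TCTP stood at 13.34 in every array with a range of 3.6e-07. The factor eIF-5A, which carries the modified amino acid hypusine and helps the ribosome through difficult peptide bonds, is encoded by eIF-5A1 to eIF-5A4. Control means of these genes were 12.08 for eIF-5A1, 12.35 for eIF-5A2, 11.70 for eIF-5A3 and 12.92 for eIF-5A4. The largest range among them was 0.00024, and 3 of the 4 had lower means in drought.

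The ribosomal protein genes RPL8, RPL3, RPS25 and L23 all had higher means in drought on the values as deposited and lower ones after quantile normalization (-0.021, -0.013, -0.017 and -0.013) and after centring (-0.0052 to -0.0055). RPL3 read 11.89401, 11.89428 and 11.89440 in control and 11.89446, 11.89452 and 11.89458 in drought. No drought array overlapped a control array, and control replicate 1 was the lowest of all 6. The difference of RPL3 was 0.00029 ± 0.00011 (SE, limma adjusted p = 0.216). Leaving out control replicate 1 gave 0.00018. RPL8, with 12.03674, 12.03678 and 12.03677 in control and 12.03679, 12.03683 and 12.03682 in drought, also had no overlap and differed by 5.2e-05 ± 1.4e-05 (adjusted p = 0.124). ArcA1, a relative of the ribosome-bound scaffold protein RACK1, was separated in the same direction by 0.00026 ± 0.00011 (adjusted p = 0.230). It had 11.17248, 11.17277 and 11.17284 in control and 11.17292 to 11.17297 in drought. Control replicate 1 was the lowest array here too, and without it the difference was 0.00015.

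**Figure D2:**
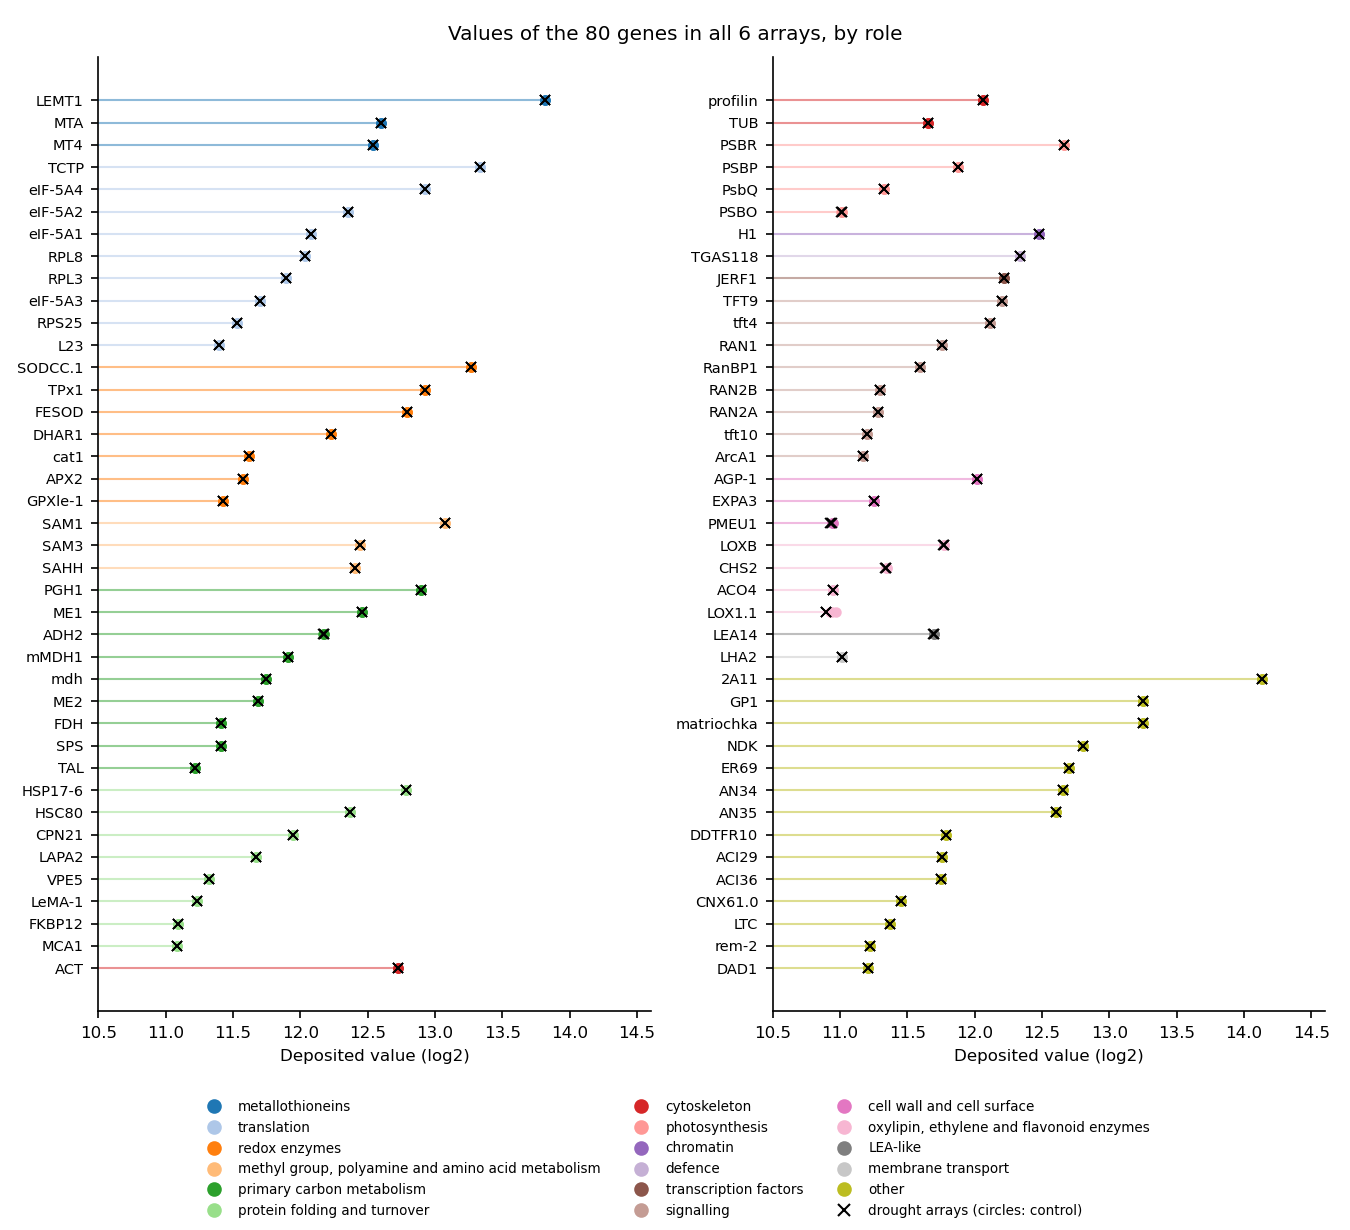
Deposited values (log2) of the 80 members in each of the 6 arrays, grouped by role and, within a role, from the highest to the lowest control mean. Circles are the 3 control and crosses the 3 drought arrays. Circles and crosses coincide except in LOX1.1 and PMEU1, and 2A11 stands highest at 14.13. The brightness of a probe set also depends on its sequence, so the order is that of the rule and not of transcript numbers.

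All 4 photosystem II genes that the rule could have chosen were members. PSBO, PSBP and PsbQ encode extrinsic proteins of the oxygen-evolving complex, and PSBR encodes a further small subunit. Their control means were 11.01, 11.88, 11.33 and 12.66. None had separated groups, and 0 of 5 listed photosynthesis genes passed the threshold. PSBO varied most, with 11.0095, 11.0109 and 11.0166 in control and 11.0146, 11.0134 and 11.0066 in drought. Control replicate 3 was its highest array and drought replicate 3 its lowest.

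PsbQ, with 11.3279, 11.3286 and 11.3296 in control and 11.3297, 11.3295 and 11.3281 in drought, followed a similar course. In PSBO, PSBP and PsbQ the lowest 2 arrays were control replicate 1 and drought replicate 3, and the highest 2 were control replicate 3 and drought replicate 1. The chlorophyll-binding protein genes CAB4, CAB5 and CAB6A, which are not members, shared with PSBO the highest array and the lowest. The difference between the groups was thus smaller than the spread within them. In PSBO it was -0.00083 ± 0.0032 (SE, limma adjusted p = 0.918), and it became 0.0013 without control replicate 3 and 0.0017 without drought replicate 3.

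Of 23 listed genes of central carbon metabolism, 7 were members and 0 passed the threshold. FDH and TAL were placed beside them as members, and of these TAL passed. TAL read 11.21832, 11.21828 and 11.21828 in control and 11.21860, 11.21865 and 11.21865 in drought. The groups were far apart for their spread, with means of 11.21829 ± 2.5e-05 and 11.21863 ± 3.1e-05 (SD, n = 3 each). TAL rose by 0.00034 ± 2.2e-05 (SE, limma adjusted p = 0.0410), or 0.0235% on a linear scale. That size lies under the largest spike-in range of 0.00047. TAL turned lower after quantile normalization (-0.0041) and after centring (-0.0052), and it missed the threshold without any single array other than control replicate 3 (adjusted p = 0.0572 to 0.174).

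The enzymes of malate metabolism were both malic enzyme genes, ME1 and ME2, and 2 of 5 malate dehydrogenase genes, mdh and mMDH1. ME1 stood at 12.46 and ME2 at 11.69, each with a range under 0.0001. In mMDH1, whose name is that of a mitochondrial enzyme, the arrays read 11.91027, 11.91025 and 11.91030 in control and 11.91033, 11.91036 and 11.91035 in drought. The groups were separated, with a difference of 7.3e-05 ± 1.8e-05 (SE, adjusted p = 0.110). The enolase gene PGH1 stood at 12.90 with overlapping groups.

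ADH2, the alcohol dehydrogenase gene of tomato fruit, had 12.1756, 12.1708 and 12.1770 in control and 12.1742, 12.1747 and 12.1699 in drought. The groups overlapped (difference -0.0016 ± 0.0023, adjusted p = 0.741). The size rested on single arrays, and leaving out 1 moved it between -4.1e-05 (drought replicate 3) and -0.0034 (control replicate 2), with -0.00028 for control replicate 3, -0.0010 for control replicate 1 and -0.0024 for drought replicate 2. SPS, the gene of sucrose phosphate synthase, which makes the precursor of sucrose, had 11.4130, 11.4106 and 11.4111 in control and 11.4099, 11.4086 and 11.4090 in drought. All drought arrays were below all control arrays, and the difference was -0.0024 ± 0.00078 (adjusted p = 0.162). FDH, for formate dehydrogenase, stood at 11.41.

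Of the methyl cycle, both S-adenosylmethionine synthetase genes among the named genes, SAM1 and SAM3, and the adenosylhomocysteinase gene SAHH were members. SAM1 stood at 13.07, SAM3 at 12.44 and SAHH at 12.40, with ranges of 3.1e-05, 2.3e-05 and 4.3e-05. S-adenosylmethionine is the methyl donor of the cell and the precursor of ethylene and polyamines. Groups of SAHH were separated, with a higher mean in drought by 2.5e-05 ± 7.6e-06 (SE, limma adjusted p = 0.150). ACO4, the gene of an ACC oxidase that makes ethylene, stood at 10.95, with overlapping groups. No listed gene of methyl group, polyamine and amino acid metabolism passed the threshold.

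Redox enzymes gave 7 members out of 17 listed genes, and all 7 had a lower mean in drought, as did 13 of the 17 listed and 50.8% of all probe sets. None of the 17 passed the threshold. The count rests on the ranked probe sets. Second probe sets of APX2 and DHAR1 had higher means in drought, by 0.00010 and 2.1e-05, and that of FESOD had a lower one. The cytosolic superoxide dismutase gene SODCC.1 stood at 13.27 and the thioredoxin peroxidase gene TPx1 at 12.92, each with a range of at most 5.0e-06. FESOD, an iron superoxide dismutase gene, had 12.79081, 12.79051 and 12.79089 in control and 12.79073, 12.79053 and 12.79048 in drought, and the groups overlapped. DHAR1 for dehydroascorbate reductase, APX2 for ascorbate peroxidase and GPXle-1 for glutathione peroxidase had ranges of 0.00011, 0.00049 and 0.00025, with overlapping groups.

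The catalase gene cat1 was the redox member with the widest spread. It read 11.6183, 11.6201 and 11.6179 in control and 11.6170, 11.6155 and 11.6174 in drought. All drought arrays lay below all control arrays, and the gap between the nearest arrays was smaller than the range within either group. The difference was -0.0022 ± 0.00086 (SE, limma adjusted p = 0.220).

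Of 12 listed genes of protein folding and turnover, 4 were members. VPE5, FKBP12, MCA1 and LeMA-1 were placed beside them because they are members, and 0 of these 16 genes passed the threshold. HSC80, of the HSP90 chaperone family, had 12.36617, 12.36615 and 12.36622 in control and 12.36627, 12.36629 and 12.36627 in drought. The groups were separated, by 9.4e-05 ± 2.2e-05 (SE, limma adjusted p = 0.103). The adjusted p was 0.0412 without control replicate 3 and 0.175 to 0.288 without any other single array. FKBP12, a prolyl isomerase, was separated the other way, by -0.00027 ± 0.00010 (adjusted p = 0.199).

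HSP17-6, a small heat shock protein gene, stood at 12.78, with overlapping groups. CPN21, a chloroplast co-chaperonin, stood at 11.95. The proteases or their relatives in the list were LAPA2, a leucine aminopeptidase, VPE5, a vacuolar processing enzyme, and MCA1, a metacaspase, with ranges of 4.5e-05, 6.9e-05 and 1.3e-05.

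Of 25 listed signalling genes, 7 were members, ArcA1 was placed beside them as a member, and 0 of these 26 passed. The 7 included 3 of 7 genes of 14-3-3 proteins, which bind phosphorylated partners, and all 3 genes of RAN, the GTPase of nuclear transport, with the gene of its partner RanBP1. TFT9 stood at 12.20, tft4 at 12.11 and tft10 at 11.20. RAN1 stood at 11.76, RAN2B at 11.29 and RAN2A at 11.28, and the largest range among the RAN genes was 0.00058. RAN2A and RAN2B are next to each other in the gene order of the RefSeq annotation (assembly SLM_r2.1). LeMA-1, also called TBP-1, and TCTP are direct neighbours as well. Of the 8 signalling members, tft4 and ArcA1 had separated groups, as did 34.8% of all probe sets. Both were higher in drought as deposited, tft4 by 2.3e-06 ± 2.3e-06 (SE, limma adjusted p = 0.603).

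In the cytoskeleton, actin (ACT) stood at 12.72 and profilin, which binds actin monomers, at 12.06, with ranges of 3.1e-06 and 2.0e-06. The tubulin gene TUB had 11.65460, 11.65511 and 11.65507 in control and 11.65531, 11.65517 and 11.65521 in drought. Its groups did not overlap (difference 0.00030 ± 0.00016, limma adjusted p = 0.329), and control replicate 1 stood apart from the other 5 arrays. Without it the difference was 0.00014. Histone H1 stood at 12.48, with a range of 1.1e-05. LHA2, a proton pump of the plasma membrane, was the member among 14 listed transport genes, at 11.01.

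The largest difference of the 80 genes was that of LOX1.1, and the next that of PMEU1. Both are members only through their control values, since ranking on the drought arrays loses them, so a lower mean in drought was favoured by the choice itself. LOX1.1, also called loxA, encodes a lipoxygenase, an enzyme that adds oxygen to polyunsaturated fatty acids. It had 10.970, 10.938 and 10.922 in control and 10.894, 10.898 and 10.898 in drought. All drought arrays lay below all control arrays, and the control arrays were the more spread. Means were 10.943 ± 0.025 and 10.897 ± 0.0026 (SD, n = 3 each). Drought minus control was -0.046 ± 0.014 (SE; adjusted p in limma 0.143), or -3.17% on a linear scale. LOXB, the other lipoxygenase gene of the list, had 11.7714, 11.7685 and 11.7717 in control and 11.7704, 11.7680 and 11.7671 in drought, and its groups overlapped (-0.0020 ± 0.0014, adjusted p = 0.420, and -0.0014 when drought replicate 3 was left out).

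PMEU1 encodes a pectin methylesterase, which removes methyl groups from pectin. It had 10.9460, 10.9461 and 10.9407 in control and 10.9236, 10.9372 and 10.9351 in drought. No drought array reached a control array, and drought replicate 1 was the lowest. The difference was -0.012 ± 0.0044 (SE, limma adjusted p = 0.190), or -0.847% on a linear scale, and it was -0.0081 without drought replicate 1. CHS2, for chalcone synthase of the flavonoid pathway, had 11.3472, 11.3480 and 11.3401 in control and 11.3342, 11.3410 and 11.3446 in drought. It differed by -0.0051 ± 0.0038 (adjusted p = 0.469) with overlapping groups, from 11.3451 ± 0.0043 to 11.3399 ± 0.0053 (SD, n = 3 each). Without drought replicate 1 its difference was -0.0023. The expansin gene EXPA3, 1 of 12 named expansin genes, stood at 11.25 with a range of 1.3e-05, and the arabinogalactan protein gene AGP-1 at 12.01 with overlapping groups.

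**Figure D3:**
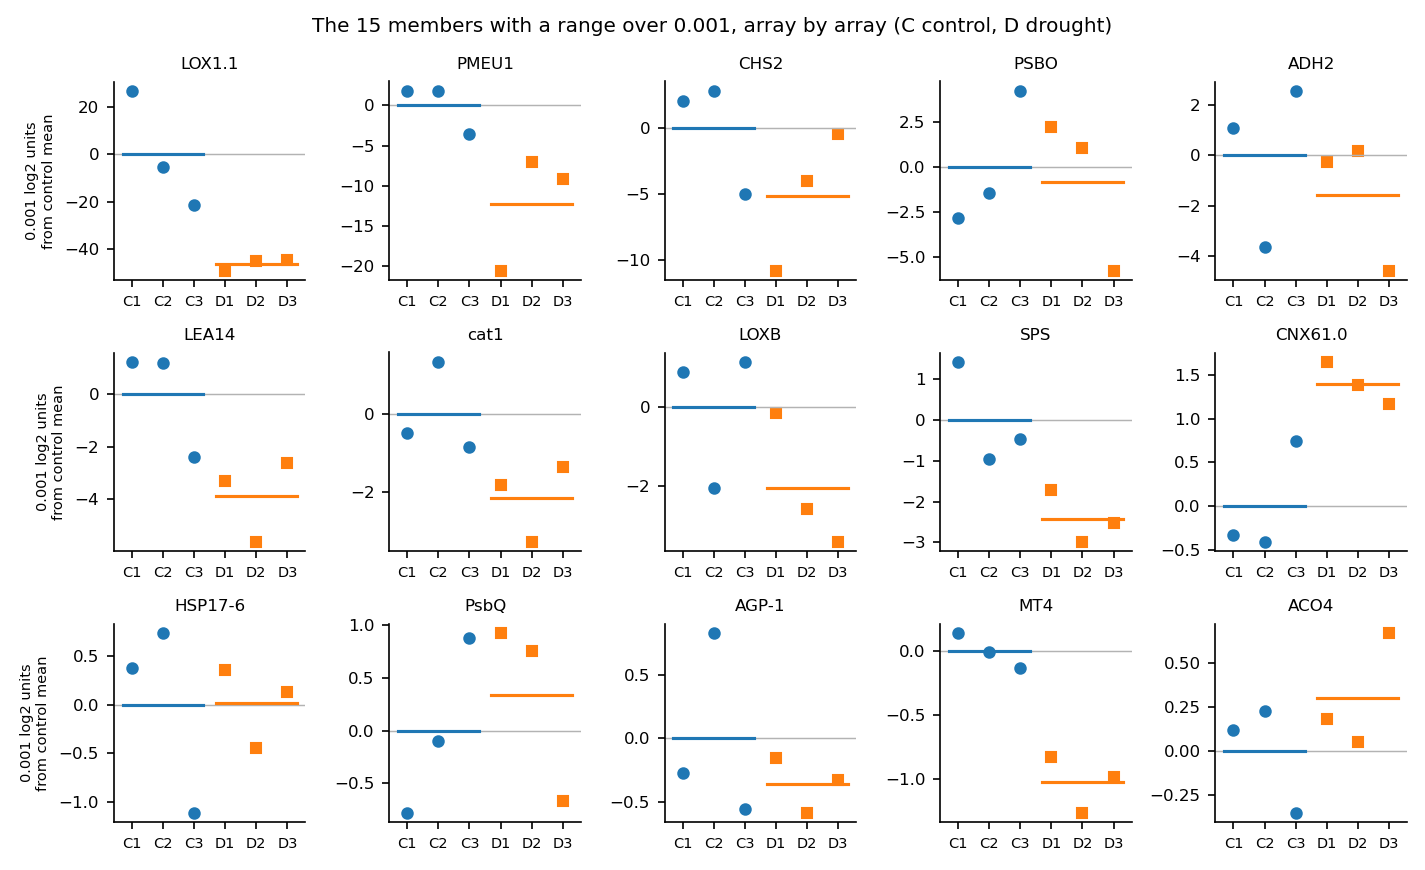
Array values of the 15 members whose range exceeded 0.001, in thousandths of a log2 unit from the control mean of each gene. Blue circles are control, orange squares drought, horizontal bars the group means, and each panel has its own scale. Of the 15 genes, 11 had a lower mean in drought, and the groups were apart in LOX1.1, PMEU1, LEA14, cat1, SPS, MT4 and, upward, CNX61.0.

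Of the 15 members with a range over 0.001, 11 had a lower mean in drought, and 9 of 13 (69.2%) did without LOX1.1 and PMEU1. The share was 56.2% among the 2454 probe sets with such a range, which are 24.3% of all. Without LOX1.1 and PMEU1, all drought arrays were lower in 4 of the 13, where the 2454 probe sets gave 20.9%. All were higher in 1, where they gave 27.6%. That gene, CNX61.0, had 11.4490, 11.4489 and 11.4501 in control and 11.4510, 11.4507 and 11.4505 in drought. Its difference was 0.0014 ± 0.00038 (SE, limma adjusted p = 0.130), with control replicate 3 nearest the drought arrays. Without that replicate the adjusted p was 0.0369, and without any other single array it stayed above 0.05.

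LEA14, also called Lemmi9, whose name is that of the late embryogenesis abundant proteins, had 11.6993, 11.6992 and 11.6956 in control and 11.6947, 11.6924 and 11.6954 in drought. The groups were separated by the narrow gap between control replicate 3 and drought replicate 3. The difference was -0.0039 ± 0.0014 (SE, limma adjusted p = 0.20). The remorin gene rem-2, for a protein of membrane microdomains, had 11.22145, 11.22146 and 11.22132 in control and 11.22103, 11.22097 and 11.22110 in drought. Its groups were separated by -0.00037 ± 5.5e-05 (SE, limma adjusted p = 0.0598). The adjusted p was 0.0415 without control replicate 3 and above 0.05 without any other single array.

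None of the 21 listed transcription factor genes and none of the 16 listed defence genes was a member. Of the 21, TCP3 passed the limma threshold as higher and BL2 as lower in drought, as did 0.762% of all probe sets in either direction. Their ranges over the arrays were only 0.037 and 0.013. No probe set passed after quantile normalization, with the replicate block, or without control replicate 2 or drought replicate 3. Both calls were therefore lost under each of those settings. Outside these lists, the ethylene response factor gene JERF1 was a member at 12.22 with a range of 0.00020, and so was TGAS118, with the synonym DEFL2, at 12.33. Of the remaining members, NDK for nucleoside diphosphate kinase stood at 12.81, ER69 at 12.70 and DAD1, a subunit of the oligosaccharyltransferase, at 11.21. AN34, AN35, DDTFR10, ACI29, ACI36 and LTC carried no description in the tables used here, and their ranges were all under 0.001. AN35 had separated groups, higher in drought by 5.9e-06 as deposited.

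**Figure D4:**
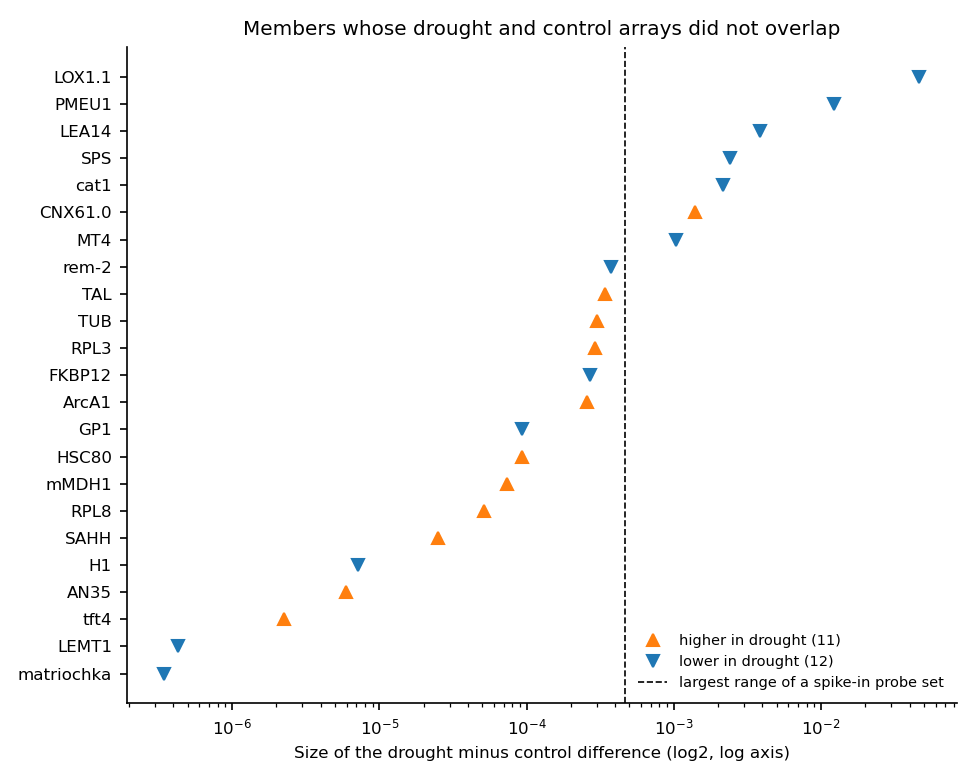
Size of the drought minus control difference (log2, log axis) of the 23 members whose groups did not overlap. Upward triangles are the 11 genes higher in drought and downward triangles the 12 lower in drought, on the values as deposited. The dashed line stands at 0.00047, the maximum over the spike-ins, and 7 genes lie beyond it, of which CNX61.0 is the one higher in drought.

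Of the 23 separated members, 7 differed by more than the largest spike-in range, 6 of them lower (LOX1.1, PMEU1, LEA14, SPS, cat1 and MT4) and 1 higher in drought. Without LOX1.1 and PMEU1 there were 4 lower and 1 higher. Of all 3511 separated probe sets, 15.6% lay lower and 21.8% higher by more than that range. None of the 7 members passed the threshold.

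The list hardly depended on which arrays ranked the genes. With a median range of 9.3e-05 in the members, ranking on other arrays could hardly change it. On the mean of the drought arrays, 78 of the 80 members were still among the top 80, and LOX1.1 and PMEU1 gave way to ER-SHSP and gad2. On single arrays, 78 to 80 members stayed. The limit fell between LOX1.1 at 10.943 ± 0.025 and the fructokinase gene FRK2 at 10.887 ± 0.00089 (SD, n = 3 control arrays). Just inside stood ACO4 at 10.949, PMEU1 at 10.944 and LOX1.1, and just outside FRK2, CLPP2 at 10.872 and ypt2 at 10.870. The glutamate decarboxylase gene gad2 was at 10.863 ± 0.055 in control and 10.988 ± 0.0084 in drought, and ER-SHSP at 10.863 ± 0.042 and 10.936 ± 0.010.

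Of the 80 members, 9 had more than 1 probe set under the same symbol. In APX2 and VPE5 and in DHAR1 the probe sets lay on both sides of 0, by at most 0.00014. With the probe sets of a gene averaged, 12 members were higher and 11 lower without overlap, in place of 11 and 12, and H1 and VPE5 left the top 80.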

How the data were processed

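The authors deposited 1 log2 value per probe set and array. Their scale was read from the values, and the background correction, normalization and summary method are not given in the sources used here. Samples were grouped by title. Of 10209 probe sets, 108 belong to the manufacturer's controls, and the remaining 10101 were tested. Symbols came from the platform annotation (909 probe sets with 1 symbol, 0 with several). For 78 of 80 members the gene ID was found in a RefSeq table, which changed 0 symbols.

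Drought minus control was fitted in limma 3.58.1 (R 4.3.3; lmFit, eBayes, two-sided, Benjamini-Hochberg over all 10101, threshold 0.05) on the values as deposited. The fit was tested on simulated data. No list was tested as a set. Members and role lists were chosen with earlier results of these data known. Members described array by array were the 12 with the highest control means, the 12 with the largest differences, those past the threshold, the 5 with the smallest p-values, the 3 on either side of the limit and up to 3 of each role list by p. Where their arrays shared the first 2 decimals, 1 level is printed for some. Other members got at most 1 value. For arrays, their number limits the precision. Alternatives were other scalings, filters, priors, weights, list sizes and rankings, a replicate block and leaving out each array. Members outside the fixed lists were placed by symbol. Sequences were not used here.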

Additional observations from a re-analysis of the deposited data

How the results depend on the processing

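The count of members past the threshold (1) was 0 after quantile normalization, with the replicate number as a block, with unmoderated variances and among the top 40 genes, 2 with array weights and 78 after centring on the array median. Leaving out 1 array gave 0 to 4. The count over all probe sets (77) was 0 after quantile normalization, 0 with the replicate block, 9406 after centring, 391 with array weights, 7 with unmoderated variances and 0 to 546 without 1 array. For separated arrays under the other scalings or without 1 array, no share over all probe sets is given. Members with separated arrays, 11 higher and 12 lower, became 0 and 67 after quantile normalization and 0 and 80 after centring. Without 1 array they were 11 to 17 higher and 12 to 22 lower, with the highest counts without drought replicate 1 (17 higher, 20 lower) and control replicate 2 (22 lower). Leaving out an array can only keep or add separated probe sets, members or not. These counts therefore cannot be called particular to the members. The median difference over the members became -0.013 after quantile normalization and -0.0055 after centring, and -3.9e-07 to -1.2e-06 without 1 array, the last without drought replicate 1. Deviations of same-numbered samples from their group means correlated at -0.092, -0.023 and -0.11. Those of differently numbered samples correlated at -0.049 to 0.12. With 3 arrays per group, these values cannot show whether same-numbered samples were linked. Under the block TAL had an adjusted p of 0.159.

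The 11 separated members with positive differences turned negative under both scalings. After quantile normalization these were AN35 (-0.012), SAHH (-0.019), HSC80 (-0.015), tft4 (-0.025), RPL8 (-0.021), mMDH1 (-0.0092), RPL3 (-0.013), TUB (-0.0057), CNX61.0 (-0.0047), TAL (-0.0041) and ArcA1 (-0.0068). After centring they were AN35 (-0.0055), SAHH (-0.0055), HSC80 (-0.0054), tft4 (-0.0055), RPL8 (-0.0055), mMDH1 (-0.0055), RPL3 (-0.0052), TUB (-0.0052), CNX61.0 (-0.0041), TAL (-0.0052) and ArcA1 (-0.0053). The difference of PSBO ran from -0.0024 (without drought replicate 1) to 0.0017 (without drought replicate 3), and it was 0.0013 when control replicate 3 was left out. Centring takes from each array its own median. The medians were 7.897 to 7.902 in control and 7.905 to 7.907 in drought, so centring lowers drought values relative to control values. Why the medians differed was not tested, nor was the cause of the other changes. Of 378 recomputed differences of 27 named members, 329 kept their direction and their side of the threshold. The filter, the replicate block, the other prior and unmoderated variances leave a difference unchanged, so its direction could not change there. The total also counts differences that changed in size, such as that of LEMT1, from -4.3e-07 to -0.033 after quantile normalization. It is therefore no measure of how stable the differences were.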
